A study of Mus musculus with 9 samples.

Results

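Classical MHC class I genes and the immunoproteasome were followed in RNA from the small intestine of mice with acute graft-versus-host disease (GVHD), in which transplanted immune cells attack the tissues of the host. The 10 genes were chosen by name from 48708 genes in the deposited table. B2m, H2-K1 and H2-D1 encode the class I molecule, Tap1, Tap2 and Tapbp its peptide supply, Psmb8, Psmb9 and Psmb10 the catalytic subunits of the immunoproteasome, and Nlrc5 the regulator of these genes. All 10 passed the filter on low counts.

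There were 9 libraries in 3 groups of 3, all from C57BL/6 mice labelled as postnatal week 8 and as having acute GVHD. Ripk3-KO mice are labelled RIPK3-/-, a germline genotype. VilCre-Ripk3fl/fl mice are labelled as carrying Villin-cre and floxed Ripk3, a design in which Cre made under the Villin promoter deletes the gene in intestinal epithelium. WT mice are labelled wild type. Ripk3 encodes a kinase that drives necroptosis, an inflammatory form of cell death. The labels do not give the strain or genotype of the transplanted cells, and they do not say whether the 3 libraries of a group came from separate mice, so each p-value here covers the spread among these libraries, which may be technical.

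Class I molecules display peptides from inside the cell to CD8 T cells, and donor T cells that read class I on host cells are a known driver of GVHD. Peptides are cut by the proteasome, pumped into the endoplasmic reticulum by the TAP transporter and loaded onto a heavy chain paired with beta-2 microglobulin. Interferon-gamma is known to raise the whole set, in part by replacing the constitutive catalytic subunits of the proteasome with the immune forms and in part through NLRC5, which acts at the promoters of class I genes.

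Library totals ran from 25375499 to 41038990 counts, and 16539 genes were tested. Each member was well covered, with no fewer than 595 counts in any library. Values below are CPM, counts set relative to library size, scaled with TMM, a method that brings libraries to a common level from the bulk of their genes. A gene is said to have risen, fallen or passed where edgeR's quasi-likelihood test gave a Benjamini-Hochberg adjusted p under 0.05 over all genes tested. Ripk3 itself (chromosome 14, 55784996 to 55788857 in mm10) had 3.88, 3.57 and 3.40 CPM in the Ripk3-KO libraries and 5.54, 7.36 and 6.46 CPM in the VilCre-Ripk3fl/fl libraries, against 113, 114 and 112 CPM in WT. It fell in both groups, with log2 fold changes of -4.96 and -4.12.

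The tissue pieces also differed in make-up. The summed level of 16 exocrine pancreas markers was 115 to 131 CPM in Ripk3-KO and 18800 to 20525 CPM in VilCre-Ripk3fl/fl, against 2655 to 2711 CPM in WT. The sum of 14 adipocyte markers was 6941 to 7071 CPM in Ripk3-KO and 500.3 to 503 CPM in VilCre-Ripk3fl/fl, against 313 to 328 CPM in WT. For 12 fibroblast and smooth muscle markers it was 3471 to 3835 CPM in Ripk3-KO and 2886 to 3021 CPM in VilCre-Ripk3fl/fl, against 1567 to 1620 CPM in WT. Leukocyte markers, 18 of 19 of which were in the table, summed to 389 to 417 CPM in Ripk3-KO and 256 to 265 CPM in VilCre-Ripk3fl/fl, against 422 to 430 CPM in WT. The macrophage gene Lyz2, singled out after its values were seen, carried much of that sum, with 245, 233 and 218 CPM in Ripk3-KO and 104, 95.8 and 106 CPM in VilCre-Ripk3fl/fl, against 226, 221 and 223 CPM in WT. Of 17 leukocyte markers tested, 1 was higher and 7 lower in Ripk3-KO (median -0.33), beside 27.3% and 28.1% of all genes. In VilCre-Ripk3fl/fl 1 was higher and 11 lower (median -0.44), beside 27.2% and 28.4%. The T cell genes Cd8a, Cd8b1, Cd3e and Cd2, picked from the list, fell in both, while Cd4 and Cd3g overlapped WT in both. Another macrophage gene, Adgre1, lay above WT, with 10.9, 11.1 and 9.02 CPM in Ripk3-KO and 8.67, 8.28 and 8.61 CPM in VilCre-Ripk3fl/fl. In WT it had 5.71, 5.63 and 7.87 CPM. The 15 epithelial markers, which define the labelled tissue here, were all present and summed to between 18822 and 20589 CPM in every library. Single markers moved: 3 were higher and 9 lower in Ripk3-KO than in WT (median -0.27), beside 27.3% and 28.1% of all genes. In VilCre-Ripk3fl/fl against WT 7 were higher and 3 lower (median 0.05), beside 27.2% and 28.4%. Between Ripk3-KO and VilCre-Ripk3fl/fl 2 were higher and 10 lower, where 16.6% of all genes tested were higher and 15.1% lower. Xist, made from the inactive X chromosome, was at 272 to 283 CPM in Ripk3-KO. It was at 7.07 to 7.90 CPM in VilCre-Ripk3fl/fl and 6.67 to 10.6 CPM in WT. Ddx3y, on the Y chromosome, was at 0.290 to 0.708 CPM in Ripk3-KO. In VilCre-Ripk3fl/fl it was at 34.6 to 43.3 CPM and in WT at 37.8 to 41.0 CPM. By these transcripts the Ripk3-KO libraries read as female tissue and the other groups as male tissue. Genotype, sex and tissue make-up therefore cannot be told apart as sources of a difference involving Ripk3-KO. Nor can genotype and tissue make-up be told apart in VilCre-Ripk3fl/fl against WT. The protocols name more than 1 library workflow and do not say which library had which. Library preparation may therefore differ between groups as well, and its part was not tested. In whole tissue, fewer cells of a type and less RNA per cell cannot be told apart either.

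The promoter windows below, 250 bases before to 50 after the RefSeq start (RefSeq, build GRCm38.p6), show what the members share and where they differ. H2-K1 (chr17:34000284-34000583, minus strand) and H2-D1 (chr17:35262844-35263143, plus strand) are shown because these closely related heavy chains moved apart, B2m (chr2:122147437-122147736, plus strand) as their partner, and Tap1 (chr17:34187306-34187605, plus strand) because it fell most among the peptide supply genes and shares 275 bases of its window, on the opposite strand, with that of Psmb9. Capitals mark matches to 6 motifs searched on both strands: GAANNGAAA, a short interferon-type core; the interferon-stimulated element core that is 1 base longer (a further A after its first GAA), added after the windows were seen; TTCNNNGAA, a palindrome of the gamma-activated type; a kappaB-type site (3 G, any 2 bases, 2 T and 3 C); TGACG, from the cyclic AMP response element; and CCAAT. The start used by RefSeq for H2-D1 lies 364 bases inside the gene start in the deposited table. Among the windows counted below but not shown, that distance is 3579 bases for Tapbp, 474 for Psmb8 and 434 for Psmb9.
H2-K1: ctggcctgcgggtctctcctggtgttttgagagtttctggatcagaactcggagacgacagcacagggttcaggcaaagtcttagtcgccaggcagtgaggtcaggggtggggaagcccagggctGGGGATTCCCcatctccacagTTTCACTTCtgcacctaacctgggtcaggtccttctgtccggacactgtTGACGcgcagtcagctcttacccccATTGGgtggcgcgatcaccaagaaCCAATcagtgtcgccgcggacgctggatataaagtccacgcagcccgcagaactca
H2-D1: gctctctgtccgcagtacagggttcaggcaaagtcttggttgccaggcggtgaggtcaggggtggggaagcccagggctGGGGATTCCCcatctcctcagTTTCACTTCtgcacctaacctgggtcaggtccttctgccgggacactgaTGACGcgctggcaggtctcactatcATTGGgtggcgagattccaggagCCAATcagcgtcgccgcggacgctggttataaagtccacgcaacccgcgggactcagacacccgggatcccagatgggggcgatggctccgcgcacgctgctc
B2m: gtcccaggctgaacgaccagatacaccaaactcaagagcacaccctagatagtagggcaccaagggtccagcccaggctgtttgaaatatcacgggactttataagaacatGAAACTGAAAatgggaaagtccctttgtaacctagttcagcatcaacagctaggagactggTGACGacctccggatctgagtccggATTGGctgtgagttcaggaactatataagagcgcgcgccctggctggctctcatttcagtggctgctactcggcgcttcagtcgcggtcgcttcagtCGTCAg
Tap1: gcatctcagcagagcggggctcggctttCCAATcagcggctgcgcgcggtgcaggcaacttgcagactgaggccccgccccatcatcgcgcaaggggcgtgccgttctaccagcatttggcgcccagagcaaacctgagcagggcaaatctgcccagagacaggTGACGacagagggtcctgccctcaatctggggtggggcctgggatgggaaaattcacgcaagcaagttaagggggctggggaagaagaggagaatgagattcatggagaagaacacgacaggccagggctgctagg
The H2-K1 and H2-D1 windows both hold GGGGATTCCC followed by TTTCACTTC, the shorter interferon-type core on the other strand, then TGACG and CCAAT matches. B2m holds GAAACTGAAA, the longer interferon-type core, and not the kappaB-type letters. Tap1 holds neither interferon-type core nor the kappaB-type letters in its window, and both B2m and Tap1 hold TGACG and CCAAT. Of 8 members with a window, 2 hold GAANNGAAA and 2 the kappaB-type site (7.52% and 1.75% of all 32851 windows), 1 holds the longer interferon-type core (3.44%), 5 hold TGACG (20.8%), 6 hold CCAAT (37.4%) and 1, Psmb8, holds TTCNNNGAA (8.30%). The TGACG and CCAAT counts include both Tap1 and Psmb9, whose windows are largely the same bases, so these windows are not separate. Tap2 and Nlrc5 were not among the windows used. A match describes the letters only and is not evidence of a bound factor.

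Levels of different genes were compared in the deposited TPM, a unit of transcript abundance that corrects for gene length as well as library size. B2m led in every group, with 5096 ± 111 TPM in Ripk3-KO and 4163 ± 113 TPM in VilCre-Ripk3fl/fl, against 4644 ± 51.5 TPM in WT (SD, n = 3 each). It was followed in all 3 groups by H2-K1, H2-D1, Psmb10, Tapbp and Psmb8, and Nlrc5 was last, at 11.4 ± 0.851, 6.35 ± 0.416 and 18.4 ± 0.630 TPM in Ripk3-KO, VilCre-Ripk3fl/fl and WT. The middle of the order differed between groups. In WT, Tap1 (167 ± 5.04 TPM) stood above Psmb9 (154 ± 3.70) and Tap2 (126 ± 1.97), whereas in Ripk3-KO the order was Psmb9 (139 ± 1.73), Tap2 (115 ± 3.88) and Tap1 (109.6 ± 4.75), and in VilCre-Ripk3fl/fl Psmb9 (116 ± 2.14), Tap2 (91.5 ± 0.0957) and Tap1 (83.4 ± 1.94). Neighbours in the order had separate ranges except Tap2 and Tap1 in Ripk3-KO and Tapbp and Psmb8 in VilCre-Ripk3fl/fl, whose libraries overlapped.

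The comparison of Ripk3-KO with WT asks how these genes differ in RIPK3-/- mice. The set did not move as a block. Nlrc5 and Tap1 fell most, with percent changes of -35.8% and -32.0%, Tapbp, Psmb8 and Psmb10 fell less, B2m and H2-K1 rose slightly, and H2-D1, Tap2 and Psmb9 did not pass. That makes 2 higher and 5 lower of 10, while 27.3% of all genes tested were higher and 28.1% lower (55.4% called in all), and the median log2 fold change was -0.15 over the members and 0.01 over all genes. The groups did not overlap for 9 members, as for 63.5% of all genes.

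In VilCre-Ripk3fl/fl, 2 members rose and 7 fell against WT, beside backgrounds of 27.2% higher and 28.4% lower (55.6% called in all). Nlrc5 fell most, followed by Tap1, and H2-D1, Tap2, Tapbp, Psmb8 and Psmb9 fell by less. The median log2 fold change was -0.17 over the members and 0.02 over all genes, and 9 members had groups that did not overlap (61.4% of all genes). B2m and Psmb10 were the members that rose, and both passed with RLE and upper-quartile scaling and with TMM factors computed without pancreas, adipocyte and erythroid markers. Neither held with library totals alone, where their log2 fold changes were -0.02 (adjusted p = 0.662) and 0.01 (adjusted p = 0.924), and in mean TPM B2m, Psmb10 and also H2-K1 were lower in VilCre-Ripk3fl/fl than in WT. Library totals moved the median of all genes to -0.13, against 0.02 with TMM, and turned the split of called genes from 4505 higher and 4696 lower into 3310 higher and 6261 lower. The summed pancreas markers were highest in the VilCre-Ripk3fl/fl libraries, and beyond these settings their part in the result was not tested. Genes outside the set were tested with TMM scaling alone, so small VilCre-Ripk3fl/fl rises such as those of Psme1 (0.13) and Sec61b (0.14) below are relative to that scaling. Both comparisons share the WT libraries.

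Direct comparison of Ripk3-KO with VilCre-Ripk3fl/fl shows where these groups differ. They also differed in Xist and in pancreas and adipocyte markers, so a difference cannot be assigned to the deletions. Nlrc5 and Tap1 were higher in Ripk3-KO and Psmb10 was lower, while the other 7 did not pass. The backgrounds were 16.6% of genes higher and 15.1% lower (31.7% called in all), the medians 0.08 over the members and 0.01 over all genes, and 6 members had groups that did not overlap (40.8% of all genes). Scaling mattered here as well: with library totals alone 7 members were higher, and the split over all genes was 4626 higher and 1300 lower in place of 2747 and 2497, with a median of 0.14.

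**Figure D1:**
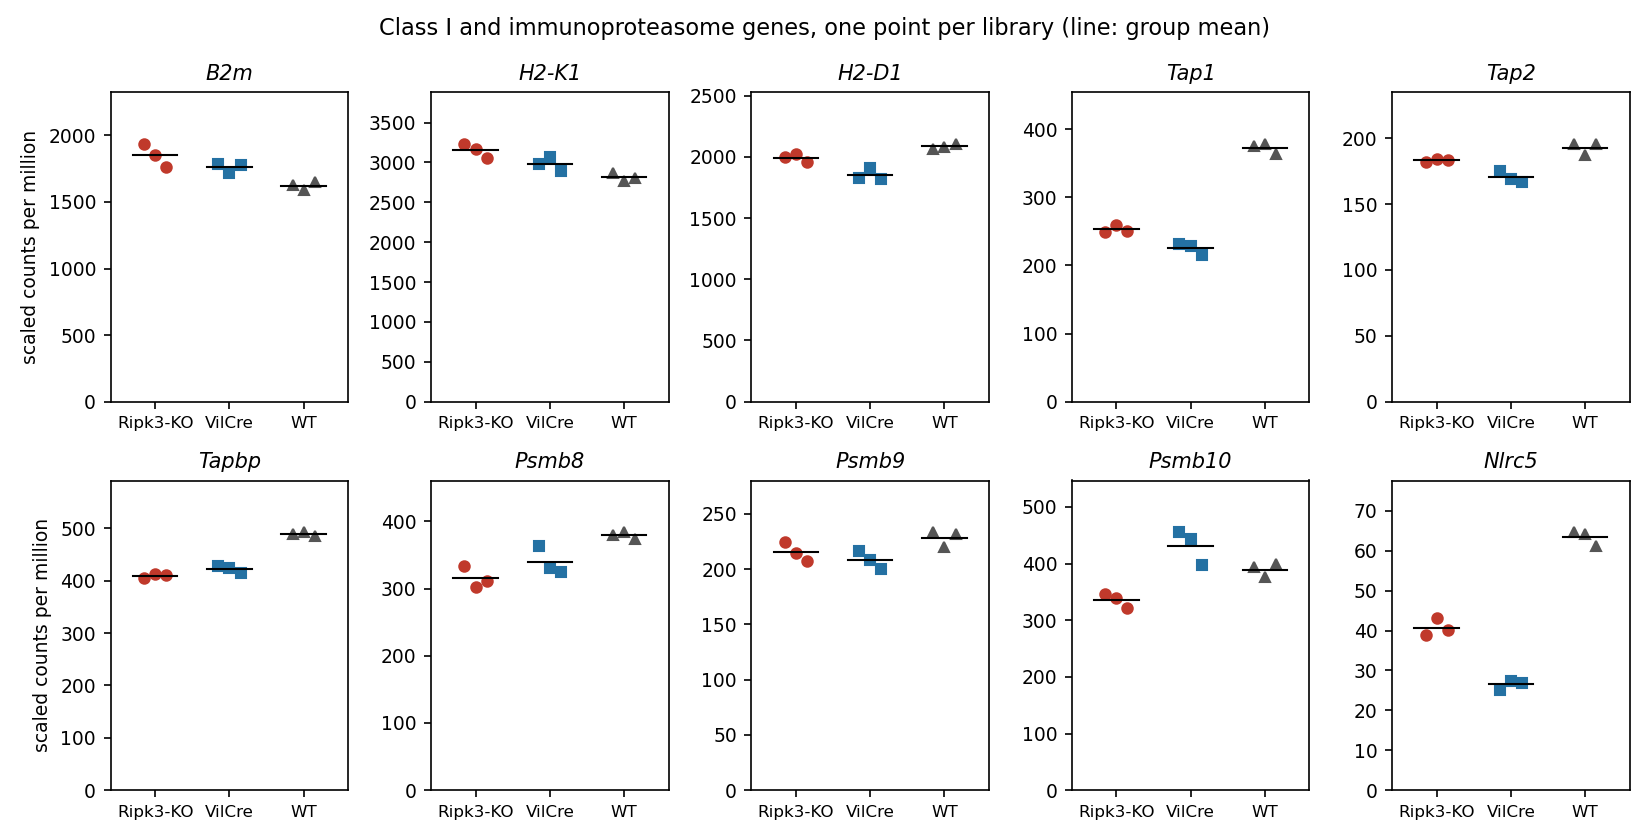
CPM scaled with TMM (vertical axes, from 0, a separate range for each gene) of the 10 members in each library, with Ripk3-KO as circles, VilCre-Ripk3fl/fl (marked VilCre) as squares and WT as triangles, and a line at each group mean. Nlrc5 and Tap1 show 3 separate levels, lowest in VilCre-Ripk3fl/fl, while the means of B2m are 1851 and 1762 CPM, against 1622 CPM in WT.

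**Figure D2:**
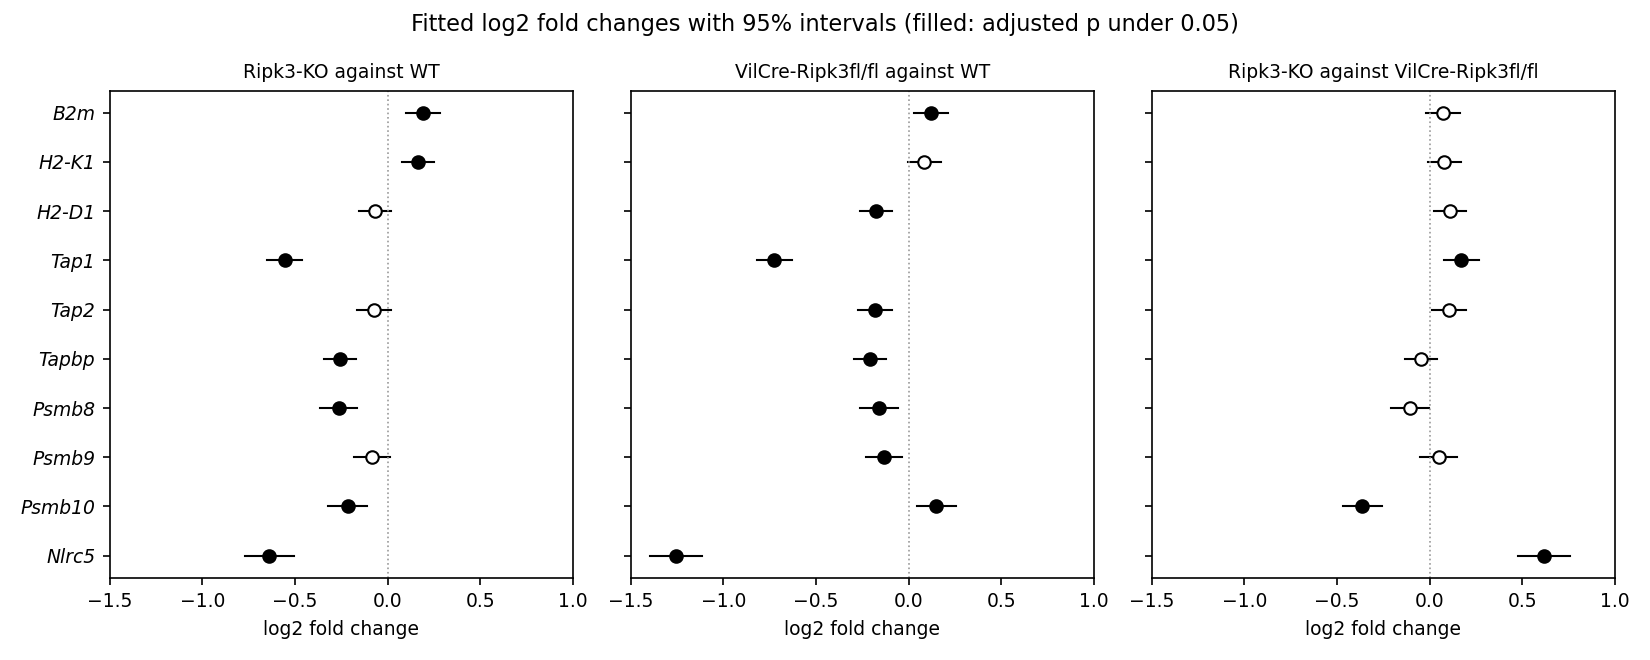
Fitted log2 fold changes (horizontal axes) of the 10 members in the 3 comparisons, with 95% intervals as lines and filled points where the adjusted p was under 0.05. Nlrc5 reaches -0.64 in Ripk3-KO and -1.26 in the VilCre-Ripk3fl/fl libraries against WT, and Tap1 (Ripk3-KO -0.56, VilCre-Ripk3fl/fl -0.73) follows.

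Nlrc5 (ENSMUSG00000074151, chromosome 8, 94434356 to 94527272), the class I transactivator, changed most of the set. It had 38.8, 43.2 and 40.1 CPM in Ripk3-KO and 25.2, 27.4 and 27.0 CPM in VilCre-Ripk3fl/fl, against 64.7, 64.2 and 61.3 CPM in WT. Every WT library was above every Ripk3-KO library, and these in turn were above every VilCre-Ripk3fl/fl library. The log2 fold change was -0.64 ± 0.06 in Ripk3-KO (SE, adjusted p = 4.50e-09) and -1.26 ± 0.07 in the VilCre-Ripk3fl/fl libraries (adjusted p = 2.96e-14) against WT. Between Ripk3-KO and VilCre-Ripk3fl/fl it was 0.62 ± 0.07 (adjusted p = 5.74e-08), so the fall was deeper in the VilCre-Ripk3fl/fl libraries. In VilCre-Ripk3fl/fl this change was larger in size than that of 87.6% of genes, and in Ripk3-KO larger than that of 69.3%. Leukocytes also express Nlrc5. Of the 17 leukocyte markers tested, 7 and 11 were lower than WT in Ripk3-KO and VilCre-Ripk3fl/fl, beside 28.1% and 28.4% of all genes. Between Ripk3-KO and VilCre-Ripk3fl/fl 3 of the 17 were higher and 3 lower, beside 16.6% and 15.1% of all genes. The part of leukocyte content in the result was not tested.

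The heavy chains and the light chain of class I molecules moved little and not together. H2-K1 (ENSMUSG00000061232, chromosome 17, 33996017 to 34000333), the K heavy chain, had 3237, 3164 and 3058 CPM in Ripk3-KO and 2981, 3074 and 2898 CPM in VilCre-Ripk3fl/fl, against 2864, 2766 and 2811 CPM in WT. Its libraries in both deletion groups were above all WT libraries. It rose in Ripk3-KO (0.16 ± 0.04, adjusted p = 0.00219). In VilCre-Ripk3fl/fl it did not pass (0.08, 95% interval -0.00372 to 0.17, adjusted p = 0.0971), although it did under 6 alternatives: upper-quartile scaling (adjusted p = 0.0164), the 1 CPM filter (0.0377), a fit of the 2 groups alone (0.0439), DESeq2 (0.0228), limma-voom (0.0388) and without VilCre-Ripk3fl/fl replicate 3 (0.0318). With library totals alone its sign turned (-0.06, adjusted p = 0.230).

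H2-D1 (ENSMUSG00000073411, chromosome 17, 35262730 to 35267499), the D heavy chain, had 1997, 2027 and 1957 CPM in Ripk3-KO and 1826, 1908 and 1816 CPM in VilCre-Ripk3fl/fl, against 2066, 2084 and 2109 CPM in WT. All WT libraries were highest. It fell in VilCre-Ripk3fl/fl (-0.17 ± 0.04, adjusted p = 0.00106) and did not pass in Ripk3-KO (-0.07, 95% interval -0.15 to 0.02, adjusted p = 0.192). H2-D1 in Ripk3-KO against VilCre-Ripk3fl/fl lay just outside the threshold (0.11, 95% interval 0.02 to 0.19, adjusted p = 0.0508) and inside it under 6 alternatives: upper-quartile scaling (0.0215), no filter (0.0359), library totals (5.6e-05), DESeq2 (0.0185), limma-voom (0.0141) and the replicate number as a block (0.0345).

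B2m (ENSMUSG00000060802, chromosome 2, 122147686 to 122153083), which encodes the light chain that every class I molecule needs, had 1938, 1852 and 1762 CPM in Ripk3-KO and 1784, 1720 and 1781 CPM in VilCre-Ripk3fl/fl, against 1625, 1589 and 1652 CPM in WT. WT libraries were lowest in each case. The change was 0.19 ± 0.04 in Ripk3-KO (adjusted p = 0.000756) and 0.12 ± 0.04 in the VilCre-Ripk3fl/fl libraries (adjusted p = 0.0255). The smaller of these, in VilCre-Ripk3fl/fl, no longer passed without VilCre-Ripk3fl/fl replicate 1 (0.11, adjusted p = 0.0515) or without WT replicate 1, 2 or 3 (0.12, 0.10 and 0.13, adjusted p = 0.0813, 0.133 and 0.0559). Between Ripk3-KO and VilCre-Ripk3fl/fl B2m did not pass (0.07, 95% interval -0.02 to 0.16).

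Because ratios within a library do not depend on how libraries are scaled to each other, 8 ratios between members or their counterparts were tested with an exact permutation test over all 1680 assignments of the 9 libraries to 3 groups, adjusted over the 8. The ratio of H2-K1 to H2-D1 in TPM was 1.56 in Ripk3-KO and 1.60 in the VilCre-Ripk3fl/fl libraries, against 1.33 in WT (adjusted p = 0.0171). H2-K1 thus gained on H2-D1 by 0.23 and 0.26 on the log2 scale, with no overlap with WT in either group. B2m relative to the sum of both heavy chains was at 1.09 in Ripk3-KO, 1.10 in VilCre-Ripk3fl/fl and 0.999 in WT and missed the threshold (adjusted p = 0.0571). For any pair of groups of 3 the smallest p such a test allows is 0.1, which was the p of H2-K1 to H2-D1 for either deletion group against WT.

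Reads can be split between related heavy chains. Of all 50-base stretches of its exons, H2-K1 shares 9.63% with another gene, the most with H2-Q10, and H2-D1 12.8%, the most with H2-Q1, and with 100-base stretches the shares are 0.957% and 3.59%. H2-Q10, a secreted class I molecule, had a log2 fold change of 0.25 in Ripk3-KO and -0.91 in the VilCre-Ripk3fl/fl libraries, and H2-Q1 one of 0.41 and 0.40. Values of H2-K1 and H2-D1 are uncertain for this reason, by an amount that these shares do not measure. The read length and the strain of the transplanted cells are not given in the sources used here. Of 14 related heavy chains tested, 5 were higher and 5 lower in Ripk3-KO and 4 higher and 8 lower in VilCre-Ripk3fl/fl, beside 55.4% and 55.6% of all genes called in either direction. H2-T3, a class I-like molecule of intestinal epithelium, rose in both groups (Ripk3-KO 0.58, VilCre-Ripk3fl/fl 0.79). H2-Q7 fell in both (Ripk3-KO -0.37, VilCre-Ripk3fl/fl -1.03), as did H2-Q6 (Ripk3-KO -0.21, VilCre-Ripk3fl/fl -0.86), and H2-M2 fell in Ripk3-KO (-1.97). In Ripk3-KO against VilCre-Ripk3fl/fl 7 were higher, among them H2-Q10 (1.15) and H2-Q6 (0.65), and 2 were lower, H2-M2 (-1.37) and H2-T3 (-0.20). Of all genes tested, 16.6% were higher and 15.1% lower in that comparison.

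The chains of the TAP transporter changed by different amounts. Tap1 (ENSMUSG00000037321, chromosome 17, 34187553 to 34197225) and Tap2 (ENSMUSG00000024339, chromosome 17, 34203527 to 34216321) encode the chains that pair to pump peptides into the endoplasmic reticulum. Tap1 had 249, 259 and 251 CPM in Ripk3-KO and 231, 229 and 215 CPM in VilCre-Ripk3fl/fl, against 375, 379 and 363 CPM in WT. Every library of both deletion groups was below every WT library. The log2 fold change of Tap1 was -0.56 ± 0.05 in Ripk3-KO (adjusted p = 9.84e-11) and -0.73 ± 0.05 in the VilCre-Ripk3fl/fl libraries (adjusted p = 7.66e-13), and 0.17 ± 0.05 for Ripk3-KO against VilCre-Ripk3fl/fl (adjusted p = 0.00503).

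Tap2 had 182, 184 and 183 CPM in Ripk3-KO and 175, 169 and 167 CPM in VilCre-Ripk3fl/fl, against 196, 187 and 196 CPM in WT. Its groups did not overlap, yet the distances were small. It fell in VilCre-Ripk3fl/fl (-0.18 ± 0.05, adjusted p = 0.00153) and did not pass in Ripk3-KO (-0.07, 95% interval -0.17 to 0.02, adjusted p = 0.163) or between Ripk3-KO and VilCre-Ripk3fl/fl (0.11, adjusted p = 0.0785). The TPM ratio of Tap1 to Tap2 was 0.954 in Ripk3-KO and 0.911 in the VilCre-Ripk3fl/fl libraries, against 1.33 in WT. Here the exact permutation test gave p = 0.00357, the smallest it can give (adjusted p = 0.00952).

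Tapbp (ENSMUSG00000024308, chromosome 17, 33915899 to 33929288) encodes tapasin, which holds empty class I molecules at TAP. It had 405, 414 and 409.8 CPM in Ripk3-KO and 429, 425 and 415 CPM in VilCre-Ripk3fl/fl, against 489, 493 and 485 CPM in WT. Both deletion groups lay below WT. The change was -0.26 ± 0.04 (adjusted p = 1.14e-05) in Ripk3-KO and -0.21 ± 0.04 (adjusted p = 0.000145) in VilCre-Ripk3fl/fl. Between Ripk3-KO and VilCre-Ripk3fl/fl Tapbp did not pass (-0.05, 95% interval -0.13 to 0.04), and with library totals alone the sign of that difference turned (0.08). Tapbp shares 149 exonic bases on the same strand with Zbtb22, which had at most 1164 counts in a library.

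Other genes of peptide loading and trimming were mostly lower. Of 12 tested, 9 fell and 1 rose in Ripk3-KO and 8 fell and 2 rose in VilCre-Ripk3fl/fl, while 28.1% and 28.4% of all genes tested fell and 27.3% and 27.2% rose in those comparisons (medians Ripk3-KO -0.38, VilCre-Ripk3fl/fl -0.19). Thop1, a cytosolic peptidase, fell in both (Ripk3-KO -0.99, VilCre-Ripk3fl/fl -0.88), as did Tapbpl, a peptide editor related to tapasin (Ripk3-KO -0.51, VilCre-Ripk3fl/fl -0.66), Erap1, the aminopeptidase that trims peptides in the endoplasmic reticulum (Ripk3-KO -0.28, VilCre-Ripk3fl/fl -0.39), and Sec61a1, the channel of the translocon (Ripk3-KO -0.55, VilCre-Ripk3fl/fl -0.21). Bcap31, which helps class I leave the endoplasmic reticulum, rose in both (Ripk3-KO 0.34, VilCre-Ripk3fl/fl 0.35), and the translocon subunit Sec61b rose in VilCre-Ripk3fl/fl (0.14) while it fell in Ripk3-KO (-0.23). In Ripk3-KO against VilCre-Ripk3fl/fl 5 were lower and none higher, beside 15.1% and 16.6% of all genes. Among those lower were Sec61a1 (-0.34) and Sec61b (-0.37).

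The immunoproteasome subunits did not share a pattern. Psmb8 (ENSMUSG00000024338, chromosome 17, 34197721 to 34201454), the subunit that replaces Psmb5, had 334, 303 and 311 CPM in Ripk3-KO and 364, 331 and 325 CPM in VilCre-Ripk3fl/fl, against 379, 384 and 375 CPM in WT. WT libraries were highest, and those of the deletion groups overlapped each other. Psmb8 fell in Ripk3-KO (-0.26 ± 0.05, adjusted p = 6.60e-05) and in the VilCre-Ripk3fl/fl libraries (-0.16 ± 0.05, adjusted p = 0.00913), where it did not pass without VilCre-Ripk3fl/fl replicate 2 (-0.14, adjusted p = 0.0548). Between Ripk3-KO and VilCre-Ripk3fl/fl Psmb8 did not pass (-0.11, 95% interval -0.21 to -0.00467, adjusted p = 0.107), but it did without Ripk3-KO replicate 1 (-0.15, adjusted p = 0.0190) or VilCre-Ripk3fl/fl replicate 3 (-0.14, adjusted p = 0.0398), and with library totals alone the sign turned (0.02).

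Psmb9 (ENSMUSG00000096727, chromosome 17, 34181988 to 34187764), the counterpart of Psmb6, had 225, 214 and 207 CPM in Ripk3-KO and 217, 209 and 199.9 CPM in VilCre-Ripk3fl/fl, against 234, 219.6 and 232 CPM in WT. The Ripk3-KO libraries overlapped WT. In Ripk3-KO it did not pass (-0.08, 95% interval -0.18 to 0.01, adjusted p = 0.141), except without Ripk3-KO replicate 1 (-0.12, adjusted p = 0.0478). In VilCre-Ripk3fl/fl it fell (-0.13 ± 0.05, adjusted p = 0.0226), a call that was lost without VilCre-Ripk3fl/fl replicate 2 or 3 (adjusted p = 0.0591 and 0.0944) and without WT replicate 1 or 3 (0.0893 and 0.0724). Psmb9 and Tap1 lie head to head and their exons overlap by 212 bases on opposite strands. Whether strand was used in the counting is not given in the sources used here, so reads from those bases cannot be assigned with certainty. All the same the neighbours parted: the TPM ratio of Tap1 to Psmb9, chosen after its values were seen and given with no test, was 0.741 to 0.808 in Ripk3-KO and 0.712 to 0.733 in the VilCre-Ripk3fl/fl libraries, against 1.04 to 1.15 in WT.

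Psmb10 (ENSMUSG00000031897, chromosome 8, 105935735 to 105938444), the counterpart of Psmb7, passed in opposite directions in the deletion groups with TMM scaling, though with library totals its VilCre-Ripk3fl/fl change was 0.01. It had 346, 339 and 321 CPM in Ripk3-KO and 455, 443 and 397 CPM in VilCre-Ripk3fl/fl, against 394, 375 and 398 CPM in WT. All Ripk3-KO libraries were lowest, and VilCre-Ripk3fl/fl overlapped WT through replicate 3. Psmb10 fell in Ripk3-KO (-0.22 ± 0.05, adjusted p = 0.000854), and it was lower in Ripk3-KO than in VilCre-Ripk3fl/fl (-0.36 ± 0.05, adjusted p = 3.28e-06). Its rise in VilCre-Ripk3fl/fl (0.15 ± 0.05, adjusted p = 0.0158) was lost on library totals and without VilCre-Ripk3fl/fl replicate 1 or 2 (0.11 and 0.13, adjusted p = 0.0842 and 0.0699) or WT replicate 2 (0.12, adjusted p = 0.111).

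Set against the constitutive subunits they replace, the immune subunits gave a different picture. Psmb5 had 51.9, 48.4 and 49.3 CPM in Ripk3-KO and 106, 104 and 90.1 CPM in VilCre-Ripk3fl/fl, against 105, 101 and 106 CPM in WT. The Ripk3-KO libraries stood apart, below every library of the other groups. Psmb5 fell in Ripk3-KO (-1.06 ± 0.06, adjusted p = 7.50e-14) and did not pass in VilCre-Ripk3fl/fl (-0.06, adjusted p = 0.426), and the difference between the deletion groups passed (-1.01, adjusted p = 6.11e-13). Psmb6 and Psmb7 fell in Ripk3-KO by 0.24 and 0.30 on the log2 scale. In VilCre-Ripk3fl/fl Psmb7 fell (-0.20) and Psmb6 did not pass (0.02).

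The TPM ratio of Psmb8 to Psmb5 was 2.05, 1.99 and 2.01 in Ripk3-KO and 1.09, 1.01 and 1.15 in the VilCre-Ripk3fl/fl libraries, against 1.15, 1.21 and 1.12 in WT. Ripk3-KO libraries were clear of the rest, although Psmb8 itself had fallen in that group, and VilCre-Ripk3fl/fl overlapped WT (exact permutation test, adjusted p = 0.0171). Psmb9 to Psmb6 was at 0.799 ± 0.0123 in Ripk3-KO and 0.648 ± 0.0316 in the VilCre-Ripk3fl/fl libraries, against 0.718 ± 0.00524 in WT. The 3 groups did not overlap (p = 0.00357, the smallest the exact permutation test can give, adjusted p = 0.00952). Psmb10 to Psmb7 was at 4.72 ± 0.356 in Ripk3-KO and 5.65 ± 0.310 in the VilCre-Ripk3fl/fl libraries, against 4.45 ± 0.0659 in WT (exact permutation test, adjusted p = 0.0190). There VilCre-Ripk3fl/fl was the group that stood apart, and Ripk3-KO overlapped WT. Among the immune subunits, Psmb10 to Psmb9 was 3.34, 4.44 and 3.66 in Ripk3-KO, VilCre-Ripk3fl/fl and WT (exact permutation test, adjusted p = 0.00952), and Psmb8 to Psmb9 differed as well (adjusted p = 0.0286).

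**Figure D3:**
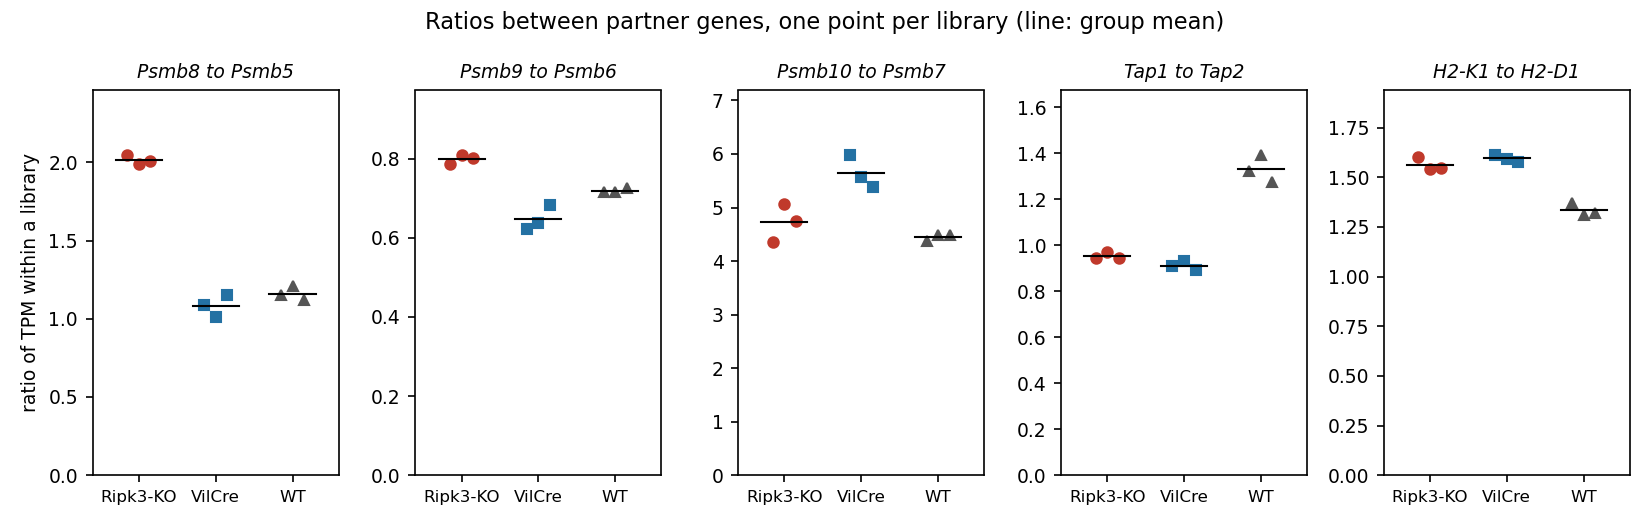
Ratios of TPM between partner genes within each library (vertical axes, from 0), with Ripk3-KO as circles, VilCre-Ripk3fl/fl (marked VilCre) as squares and WT as triangles, and a line at each group mean. Psmb8 to Psmb5 is near 2.02 in Ripk3-KO, against 1.08 in VilCre-Ripk3fl/fl and 1.16 in WT, and Tap1 to Tap2 is below 1 in both deletion groups and above it in WT.

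Most other core subunits of the proteasome were lower in Ripk3-KO. Of 11 other subunits of the 20S core, 10 fell and none rose in Ripk3-KO (median -0.36), and 8 fell and none rose in VilCre-Ripk3fl/fl (median -0.19), beside 28.1% and 28.4% of all genes lower. Psmb2 fell by 0.43 and 0.29 and Psma5 by 0.45 and 0.36 in Ripk3-KO and VilCre-Ripk3fl/fl. In Ripk3-KO against VilCre-Ripk3fl/fl 6 of the 11 were lower, beside 15.1% of all genes, among them Psmb4 (-0.21) and Psmb3 (-0.18). Of 9 activator and assembly genes, 4 fell and none rose in Ripk3-KO, while 4 fell and 4 rose in VilCre-Ripk3fl/fl, beside 55.4% and 55.6% of all genes called. Psme3 and Psme4, activators found in the nucleus, fell in both groups (Psme3 Ripk3-KO -0.50, VilCre-Ripk3fl/fl -0.54; Psme4 Ripk3-KO -0.36, VilCre-Ripk3fl/fl -0.41). Psme1 and Psme2, the interferon-induced PA28 activator, rose in VilCre-Ripk3fl/fl (0.13 and 0.36) and did not pass in Ripk3-KO (-0.08 and 0.09), and both were lower in Ripk3-KO than in VilCre-Ripk3fl/fl (-0.21 and -0.27). The assembly chaperone Psmg3 rose in VilCre-Ripk3fl/fl (0.33) and was lower in Ripk3-KO than in VilCre-Ripk3fl/fl (-0.41).

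Most genes of interferon-gamma signalling were lower in both deletion groups. Ifng, the interferon-gamma gene, had 0.323, 0.581 and 0.472 CPM in Ripk3-KO and 0.381, 0.305 and 0.215 CPM in VilCre-Ripk3fl/fl, against 3.04, 3.64 and 3.40 CPM in WT. It was low everywhere and several times lower in both deletion groups (Ripk3-KO -2.86, adjusted p = 1.35e-07; VilCre-Ripk3fl/fl -3.48, adjusted p = 3.08e-08). So few reads of Ifng were counted in the deletion groups that the size of its fall is uncertain. Irf1, an interferon-induced transcription factor, fell in both groups (Ripk3-KO -0.43, VilCre-Ripk3fl/fl -0.51) and did not pass between Ripk3-KO and VilCre-Ripk3fl/fl (0.08).

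Of the 14 interferon-gamma and IRF genes, 9 fell and 3 rose in Ripk3-KO and 11 fell and 1 rose in VilCre-Ripk3fl/fl, beside 28.1% and 28.4% of all genes lower (medians Ripk3-KO -0.29, VilCre-Ripk3fl/fl -0.25). Socs1, a feedback inhibitor of the receptor, fell by 2.29 and 2.12, Socs3 by 1.65 and 0.76 and Irf8 by 0.98 and 0.95 on the log2 scale in Ripk3-KO and VilCre-Ripk3fl/fl. The receptor chain Ifngr2 rose in both (Ripk3-KO 0.33, VilCre-Ripk3fl/fl 0.46), and Irf2, a repressor that competes with IRF1, rose in Ripk3-KO (0.18). In Ripk3-KO against VilCre-Ripk3fl/fl Jak1 was higher (0.22), and Socs3 (-0.89) and Stat3 (-0.23) were lower. Leukocytes express Irf8. Of the 17 leukocyte markers, 7 and 11 were lower in Ripk3-KO and VilCre-Ripk3fl/fl, beside 28.1% and 28.4% of all genes. Some T cell genes were among the markers that fell. The part of leukocyte content in these results was not tested.

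Of 8 genes listed for the MHC enhanceosome, the class II transactivator Ciita included, 3 fell and 1 rose in Ripk3-KO, a share near the 55.4% of all genes called, and 4 fell and 4 rose in VilCre-Ripk3fl/fl, where 55.6% of all genes were called. In the RFX complex, Rfx5 fell (Ripk3-KO -0.30, VilCre-Ripk3fl/fl -0.73) and Rfxank rose (Ripk3-KO 0.55, VilCre-Ripk3fl/fl 0.67) in both groups. In NF-Y, which binds CCAAT, Nfyb fell in both (Ripk3-KO -0.33, VilCre-Ripk3fl/fl -0.43), and Nfya rose in VilCre-Ripk3fl/fl (0.47) and did not pass in Ripk3-KO (0.09). Ciita, the class II counterpart of Nlrc5, fell in both (Ripk3-KO -0.40, VilCre-Ripk3fl/fl -0.75). As with Nlrc5, Ciita (0.35) and Rfx5 (0.43) were higher in Ripk3-KO than in VilCre-Ripk3fl/fl, and Nfya (-0.38) and Nfyc (-0.22) were lower. Of 5 NF-kappaB subunits, 4 fell in each group, beside 28.1% and 28.4% of all genes. Among them were Nfkb2 (Ripk3-KO -0.71, VilCre-Ripk3fl/fl -0.61), Rela (Ripk3-KO -0.40, VilCre-Ripk3fl/fl -0.25) and Nfkb1 (Ripk3-KO -0.19, VilCre-Ripk3fl/fl -0.32). Relb rose in VilCre-Ripk3fl/fl (0.26). None of the 5 passed between the deletion groups, where 31.7% of all genes were called.

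**Figure D4:**
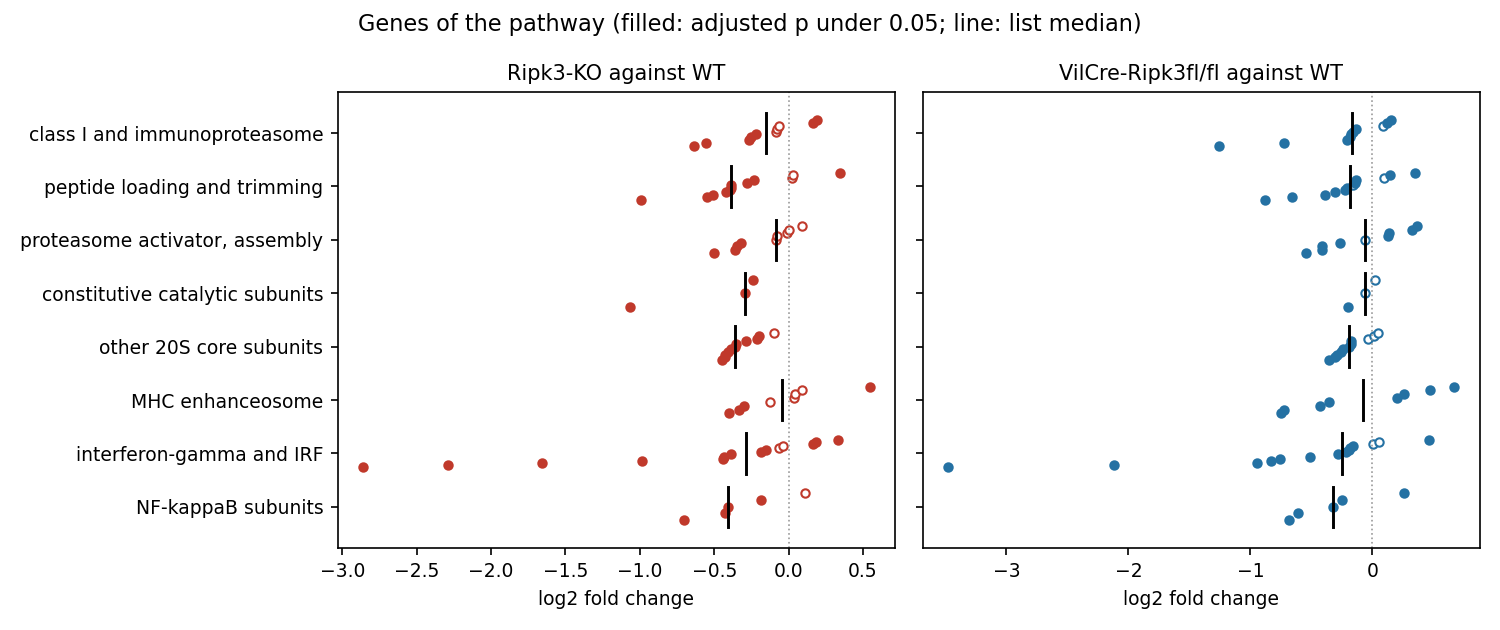
Log2 fold changes (horizontal axes) of the tested genes of 8 lists for Ripk3-KO and for VilCre-Ripk3fl/fl, each relative to WT, a point for each gene, filled where the adjusted p was under 0.05, with a line at each list's median. The median of the 10 members is -0.15 and -0.17, and Ifng is the lowest point of its row, at -2.86 and -3.48.

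Members were also compared by the shape of their levels over the 9 libraries, as the root mean square difference of mean-centred log2 CPM, a description with no test. The closest pairs were H2-D1 and Tap2 (0.03) and B2m and H2-K1 (0.04). By this measure Nlrc5 was nearest among non-members to Scd2 (0.07), H6pd (0.08), Flot2 (0.08), Als2cl (0.09) and Egr1 (0.10). Scd2 had 376 ± 10.1 CPM in Ripk3-KO and 253 ± 18.0 CPM in VilCre-Ripk3fl/fl, against 557 ± 10.4 CPM in WT. The mean of the 10 members was nearest to Pgd (0.03), Prkar1a (0.03), Fkbp1a (0.03), Ubqln1 (0.03) and Myadm (0.04).

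**Figure D5:**
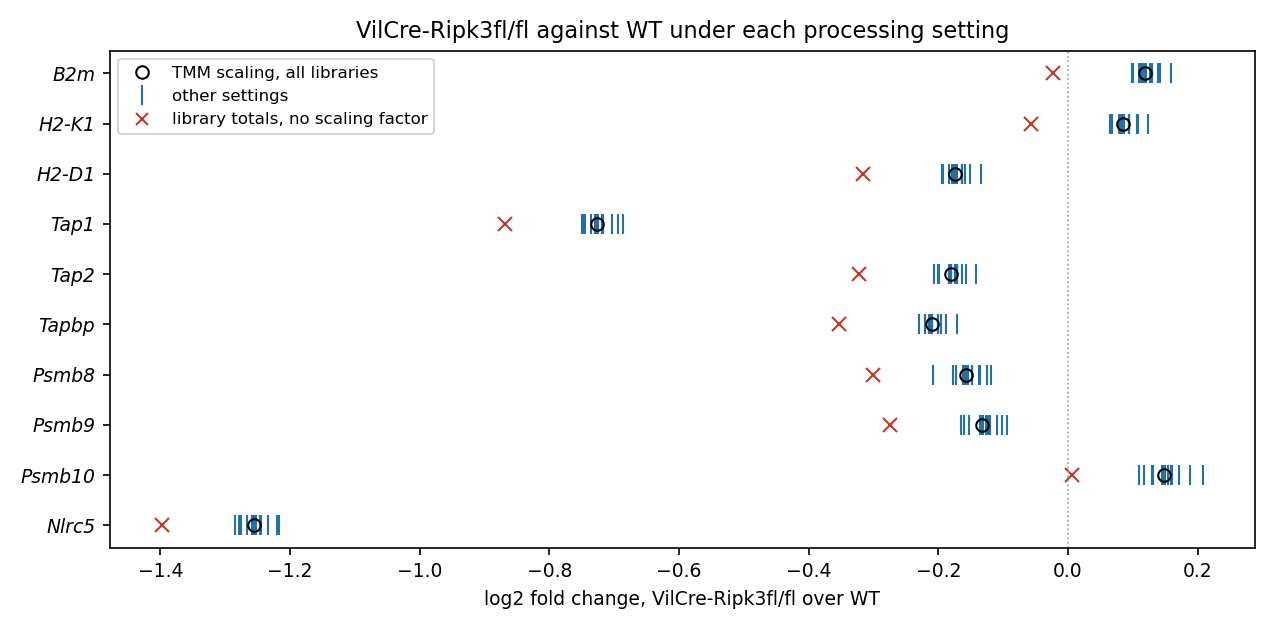
Log2 fold change of each member in VilCre-Ripk3fl/fl against WT (horizontal axis) with TMM scaling (open circle), with library totals and no scaling factor (cross) and under each of the other settings (ticks). Nlrc5 and Tap1 stay far below zero throughout, while B2m and H2-K1 lie below zero with library totals (-0.02 and -0.06) and Psmb10 close to it (0.01).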

How the data were processed

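Total RNA from small intestine was sequenced in 9 libraries, assigned to 3 groups of 3 from the sample titles. Per the labels' protocols, RNA was extracted with TRIzol, and both a Ribo-Zero with NEBNext Ultra Directional workflow and a TruSeq Stranded mRNA kit are named for the libraries; which was used for which library, and whether counting used strand, are not stated. Trimmomatic, STAR, HTSeq and DESeq2 and the build mm10 are named per the submitters' processing notes, with no version, setting or role. The authors deposited whole-number counts per gene, TPM and their own log2 fold changes, whose model is not stated. The other per-library columns in that table (18) were not used. A line with no gene (1) was left out, and 23245 genes were at 0 in every library.

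The deposited counts went into edgeR 4.0.16 (R 4.3.3; filterByExpr by group, TMM factors 0.9325 to 1.043, 1 robust quasi-likelihood model holding 9 libraries and a mean for each group, 6 residual degrees of freedom, common biological coefficient of variation 0.0812). Tests were 2-sided with Benjamini-Hochberg adjustment over 16539 genes, after the procedure was tested on simulated data. CPM are scaled with TMM, and values are means with the SD over 3 libraries. Ratios were log2 of counts plus 0.5 for tests and TPM in the text, with exact permutation tests. Positions are those of the deposited table and GENCODE M21, and promoter windows are from RefSeq. Counting error is small at this depth for the members, though not for genes with few reads such as Ifng. Replicates of a group differed by more than sampling noise.

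The members and lists were chosen with earlier results of these data known. From each list up to 2 higher and 2 lower genes with the smallest p in each comparison were named, besides Ifng, Irf1, Ciita, Psme1, Psme2, Psmb5, Psmb6, Psmb7, Erap1, Ripk3 and, for likeness, the 5 nearest genes; 1 gene that the rule names is not reported here. Residuals of libraries with the same replicate number correlated between -0.0404 and 0.0905, and the numbers are therefore not treated as pairing libraries. Alternatives were RLE, upper-quartile and marker-free TMM scaling, 2 other filters, fits of the 2 groups compared, DESeq2 1.42.0, limma-voom (limma 3.58.1), a replicate block and leaving out each library. Library totals with no scaling factor were added after the data were seen.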

Additional observations from a re-analysis of the deposited data

How the results depend on the processing

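Under 19 alternatives, 530 of the 570 member values kept their direction and their side of the threshold, 16 lost and 20 gained a call, and 4 reversed. In Ripk3-KO against WT 2 members were higher throughout and 5 or 6 lower. Nlrc5 and Tap1 passed with the same sign in all 3 comparisons under every alternative run. In VilCre-Ripk3fl/fl against WT the number of members higher, 2 here, was 1 with no filter beyond 1 count, 0 with library totals alone and 0 to 3 with a library left out. In Ripk3-KO against VilCre-Ripk3fl/fl it was 4 with upper-quartile scaling and 7 with library totals in place of 2, and the number lower was 1 to 2 with a library left out. Values that reversed with library totals were B2m (-0.023) and H2-K1 (-0.0573) in VilCre-Ripk3fl/fl against WT and Tapbp (0.079) and Psmb8 (0.0176) in Ripk3-KO against VilCre-Ripk3fl/fl. That setting leaves out the scaling factors, and the cause was not tested. B2m in VilCre-Ripk3fl/fl also lost its call with no filter (adjusted p = 0.0770), and Psmb9 under the 1 CPM filter (0.0558) and upper-quartile factors (0.106). The replicate block gave 9211, 9247 and 5371 genes called, against 9164, 9201 and 5244 without it, in Ripk3-KO and VilCre-Ripk3fl/fl against WT and between them, and changed 1 member call, that of H2-D1 in Ripk3-KO against VilCre-Ripk3fl/fl. The ratios kept their direction in each comparison with TPM, with 5 added to each count and with each library left out, except that Psmb8 to Psmb9 in VilCre-Ripk3fl/fl against WT was at 0.0105 on the log2 scale without WT replicate 2, and B2m to both heavy chains in Ripk3-KO against VilCre-Ripk3fl/fl at 0.0058 without VilCre-Ripk3fl/fl replicate 3. Every member had 595 counts or more in each library.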

Other observations

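The 10 members together took 0.877 to 0.908% of all counts in Ripk3-KO and 0.781 to 0.802% in the VilCre-Ripk3fl/fl libraries, against at least 0.890% in WT. By mean TPM, B2m was the 15th most abundant gene in Ripk3-KO and the 23rd in VilCre-Ripk3fl/fl, against the 20th in WT, and Nlrc5 was at rank 7114 and 8348, against 5761.

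The authors' deposited table gives fold changes that differ from those of the deposited counts for several members. For Nlrc5 the authors' deposited table has -0.31 in Ripk3-KO and -0.95 in the VilCre-Ripk3fl/fl libraries, and the counts give -0.64 and -1.26. For H2-D1 the authors' deposited table has -0.36 and -0.49, where the counts give -0.07 and -0.17, and for Tap2 it has -0.39 and -0.52, where the counts give -0.07 and -0.18. H2-K1 is at 0.35 and 0.24 in the authors' deposited table, and at 0.16 and 0.08 from the counts. All 10 members have the same sign in both sources in each comparison. The model behind the deposited fold changes is not given in the sources used here.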
